A study of Mus musculus with 2 samples.

Results

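*Scgn*, *Cartpt*, *Syn2*, *Cntn1*, *Nxnl2*, *Nqo2* and *Tspan2* are 7 of the 31055 features counted in neonatal mouse pituitary cells, and they are described here by the *Gnrhr* and *Lhb* status of cells rich in *Cga*, the hormone subunit gene that gonadotrophs share with thyrotrophs. The 7 genes were chosen from these data, as genes enriched in gonadotrophs, so that their levels in those cells are a description and carry no test. Each symbol matched 1 feature. The name does not hold for every one of them. *Cartpt* was lower in *Gnrhr*- or *Lhb*-positive *Cga*-rich cells than in negative *Cga*-rich cells, differentiating cells and *Pou1f1*-lineage cells taken whole, in both libraries. Female *Pou1f1*-lineage cells with little hormone RNA did not differ in *Cartpt* from positive cells beyond counting error. *Tspan2* was higher in the positive than in the negative *Cga*-rich cells in the male library. Its female ratio of positive to negative cells was 0.757, with a counting interval (0.396 to 1.35) that includes 1. That ratio turned above 1 when *Cga*-rich cells with *Pou1f1* RNA, or cells with *Tshb* RNA, were left out. No female direction is therefore read for *Tspan2*.

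The study followed pituitary stem cells (SCs) and their immediate progeny after birth. Cells of *Sox9iresGFP*/+ pituitaries at postnatal day 3 (P3), all of 1 genotype and with no treatment named, were sorted for GFP, which outlasts the SOX9 protein and so also marks recent progeny. One library came from 3 male pituitaries and the other from 3 female ones, both labelled as stem cells. The male library held 10410 cells after quality filters with 105883748 unique molecular identifiers (UMIs, each a counted RNA molecule) and a median of 8902.5 per cell, and the female library held 5711 cells with 62830305 UMIs and a median of 9789 per cell. With 1 library per sex, animals within a library cannot be separated, no difference between sexes or classes of cells could be tested over replicates, and all intervals below (95%) cover counting error only. The libraries shared 18 barcode sequences.

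Gonadotrophs are the pituitary cells that secrete luteinising hormone and follicle-stimulating hormone. Both hormones pair a common alpha subunit, encoded by *Cga*, with their own beta subunit, encoded by *Lhb* or *Fshb*, and their release is driven by hypothalamic GnRH acting on its receptor, encoded by *Gnrhr*. Thyrotrophs, which belong to the *Pou1f1* lineage together with the growth hormone and prolactin cells, also use *Cga*, with *Tshb*. Hormone cells store their product in granules and release it by calcium-triggered exocytosis, with much of the machinery that neurons use for synaptic vesicles.

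Cells with at least 2000 UMIs were placed in classes by single genes. *Cga*-rich cells carried at least 2000 *Cga* UMIs per 1000000 UMIs (CPM), and were split by whether they held at least 1 UMI of *Gnrhr* or *Lhb*. The male library held 1137 such cells and the female library 139. Among the former, 273 had *Gnrhr* only, 17 *Lhb* only, 78 both and 769 neither. Among the latter, 19 had *Gnrhr* only, 2 *Lhb* only, 3 both and 115 neither, so that the female *Gnrhr*- or *Lhb*-positive class holds 24 cells and 396703 UMIs. Among the remaining cells, those with at least 2 *Pou1f1* UMIs were called *Pou1f1*-lineage cells (665 male and 265 female), and, after setting aside *Pomc*-rich and *Dcn*-rich cells, those with at least 2 UMIs of the WNT effector gene *Lef1* were called differentiating cells (782 and 578). Cells left over with at least 2 *Sox2* UMIs were called SCs (3580 and 3779). A level is the CPM of the UMIs summed over a class.

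Some other gonadotroph markers, which took no part in this placing, differed by *Gnrhr* and *Lhb* status too. *Nr5a1*, the orphan receptor gene required for gonadotrophs, was at 56.1 CPM in *Gnrhr*- or *Lhb*-positive and 18.0 CPM in negative cells of the male library, and at 60.5 and 10.0 CPM in the female library. *Tgfbr3l*, a gonadotroph co-receptor gene, was at 30.2 against 1.28 CPM in males and at 118 against 1.77 CPM in females. *Fshb* had no UMI in the negative cells of either library, and its 305 male UMIs lay in 8 of the positive cells and its 92 female UMIs in 1. *Foxl2*, a transcription factor gene of the *Cga*-expressing lineages, stood at 217.7 and 234.6 CPM in male and 194.1 and 223.1 CPM in female cells. In males *Neurod1* went the other way, at 1014 CPM in negative, 923.0 CPM in *Gnrhr*-only and 408.9 CPM in cells with both. Female negative cells held 1324 CPM of it and *Gnrhr*-only cells 2004 CPM. Levels of the markers *Gata2* and *Nhlh2* are not given here.

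Negative and positive cells also differed in RNA of other lineages, and some negative cells carried the thyrotroph gene *Tshb*, so that *Cga*-rich cells are named here by that gene and not as gonadotrophs. Of 6 *Pou1f1*-lineage markers, 5 were higher in negative than in positive cells of the male library (summed level 1003 against 343.4 CPM, most abundant *Gh* at 359.3 against 69.5 CPM) and 4 in the female library (2647 against 118.5 CPM, most abundant *Tshb* at 2283 against 12.6 CPM). All 6 markers of differentiating cells were higher in negative male cells and 5 in negative female cells (summed 293.7 against 95.7 CPM and 412.6 against 90.7 CPM, most abundant *Smoc2*). The 4 POMC-lineage markers, almost all of it *Pomc*, summed to 4073 against 1850 CPM in males and to 686.5 against 1220 CPM in females. The 5 SC markers summed to 206.9 CPM in negative and 237.0 CPM in positive male cells (2 higher in negative cells) and to 235.5 and 78.1 CPM in female ones (3 higher), most abundant *Sox2*. Mesenchymal markers summed to 128.9 against 38.8 CPM in male negative and positive cells and to 2.95 and 0 CPM in female ones. The leukocyte marker *Ptprc* was at 0 in all classes. Scrublet, which scores likely doublets, marked 12.4% of male and 2.16% of female *Cga*-rich cells. The part of these RNAs in the differences between positive and negative cells was not tested, except where a split by *Pou1f1* or *Tshb* is given below.

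On mm10, 4 of the 7 genes lie on chromosome 13, which holds 4.55% of the features with a GENCODE vM21 position. They are *Scgn* (chr13:23953456-23991214, minus strand), *Nqo2* (chr13:33964687-33988443, plus), *Nxnl2* (chr13:51171022-51175188, plus) and *Cartpt* (chr13:99898489-99901091, minus). *Syn2* lies at chr6:115134902-115282006, *Cntn1* at chr15:92051165-92341967 and *Tspan2* at chr3:102734529-102801513, all on the plus strand. *Tspan2* contains the thyrotropin gene *Tshb* (chr3:102775465-102782718) on its opposite strand, *Syn2* contains *Timp4* (chr6:115241892-115252205) on its opposite strand, and the gene model *Gm17482* (chr6:115227343-115259294) overlaps *Syn2* on the same strand, so that reads of these pairs are uncertain. The sources used here do not say whether strand was used in counting.

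The 250 bases before the first RefSeq start (GRCm38.p6) are shown for *Cartpt*, which went against the other members, and for 3 genes that were higher in positive than in *Pou1f1*-lineage cells in both libraries, each 5′ to 3′ on the strand of its gene. Capitals mark matches, on either strand, to a NR5A1 site (CAAGGTCA), a PITX site (TAATCC), an E-box of the type bound by neurogenic bHLH factors (CAGNTG), an EGR1 site (GCGNGGGCG) or a cAMP response element (TGACGTCA). No motif overlapped another. The first RefSeq start of *Cartpt* lies inside the GENCODE gene.
Cartpt (chr13:99900684-99900933, minus strand): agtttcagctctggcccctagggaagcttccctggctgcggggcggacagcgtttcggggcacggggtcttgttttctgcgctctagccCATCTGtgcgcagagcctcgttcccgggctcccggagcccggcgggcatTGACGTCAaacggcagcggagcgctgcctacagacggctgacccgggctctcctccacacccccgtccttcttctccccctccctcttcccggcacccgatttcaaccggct
Syn2 (chr6:115134652-115134901, plus strand): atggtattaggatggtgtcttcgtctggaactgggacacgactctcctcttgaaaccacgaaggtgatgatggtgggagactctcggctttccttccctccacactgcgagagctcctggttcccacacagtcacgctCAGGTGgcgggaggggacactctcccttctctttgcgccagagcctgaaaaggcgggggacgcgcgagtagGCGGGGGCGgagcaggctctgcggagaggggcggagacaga
Nxnl2 (chr13:51170775-51171024, plus strand): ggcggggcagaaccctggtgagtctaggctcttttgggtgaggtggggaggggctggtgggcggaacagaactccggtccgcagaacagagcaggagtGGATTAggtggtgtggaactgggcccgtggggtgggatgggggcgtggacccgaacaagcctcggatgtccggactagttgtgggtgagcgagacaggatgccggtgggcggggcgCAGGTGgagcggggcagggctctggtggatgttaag
Scgn (chr13:23991215-23991464, minus strand): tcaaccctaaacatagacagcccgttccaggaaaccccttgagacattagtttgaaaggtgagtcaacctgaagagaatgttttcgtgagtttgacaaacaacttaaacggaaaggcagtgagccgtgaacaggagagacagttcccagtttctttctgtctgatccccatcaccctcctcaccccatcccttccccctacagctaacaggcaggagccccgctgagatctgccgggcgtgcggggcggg

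*Cartpt* held a complete cAMP response element that begins 112 bases before the start, a motif found in 1.55% of the 32851 RefSeq windows of this length. *Syn2* held an EGR1 site 41 bases before the start (4.70% of windows) and *Nxnl2* a PITX site 152 bases before it (6.25% of windows). E-boxes, found in 44.8% of windows, were present in *Cartpt*, *Syn2*, *Nxnl2*, *Nqo2* and *Tspan2*. The *Scgn* window and the 3 *Cntn1* windows held none of the 5 motifs, and no window of the 7 genes held the NR5A1 letters (1.33% of windows). The cAMP response element was added to the search after the *Cartpt* sequence had been read. A match is a match of letters and not a measured binding site.

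**Figure D1:**
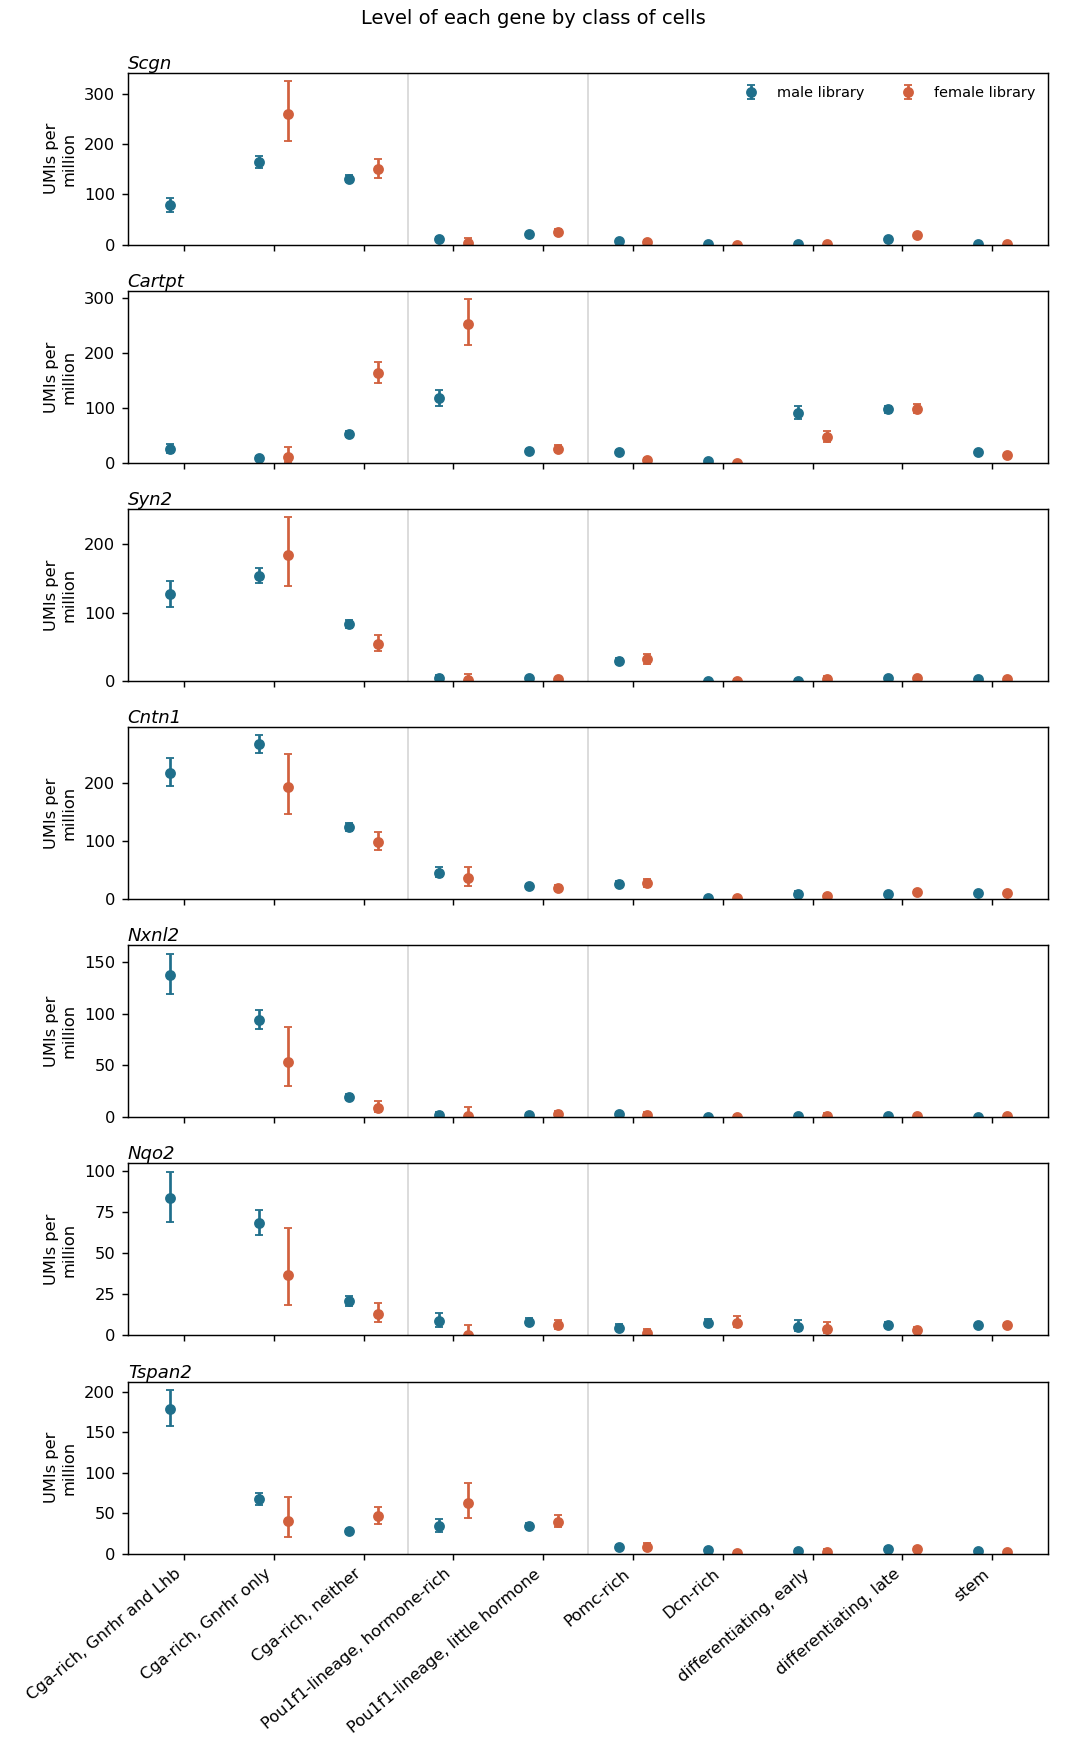
Level of each gene (CPM, linear axis from 0, one panel per gene) in 10 classes of cells, for the male (blue) and female (orange) library; points are summed levels and bars exact Poisson 95% intervals, and classes with fewer than 10 cells are left out. *Syn2* and *Nxnl2* were near 0 in the *Pou1f1* lineage, while *Cartpt* was highest in hormone-rich *Pou1f1*-lineage cells and lowest, among *Cga*-rich cells, in those with *Gnrhr* only. In males the interval of the hormone-rich cells for *Cartpt* overlapped that of late differentiating cells.

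Counted over members, the contrast with other lineages was wide and the contrast within *Cga*-rich cells narrow. A gene was called when its level, with 5 CPM added to both classes, differed at least 2-fold in a library. Against *Pou1f1*-lineage cells, *Gnrhr*- or *Lhb*-positive cells were called higher for 6 members in the male library (2.62% of the 10660 genes tested were called) and 5 in the female library (4.48%). *Scgn*, *Syn2*, *Cntn1*, *Nxnl2* and *Nqo2* were called higher in both libraries (2.05% of genes), and *Cartpt* lower in both (1.84%). The *Cartpt* call rests on a female ratio of 0.489, and it was lost under 3 of 10 alternatives in the female library (0.526 to 0.693) and, after thinning cells to 5000 UMIs and placing them anew, in the male library (0.624). It takes the *Pou1f1* lineage whole, of which 34 hormone-rich female cells held 145 of 225 *Cartpt* UMIs. Against differentiating cells, the same 5 and *Tspan2* were called higher in males (5.87% of 11590 genes), in females (7.80%) and in both libraries (4.31%), and *Cartpt* again lower (1.88%). Against *Gnrhr*- and *Lhb*-negative *Cga*-rich cells, 3 members were called higher in the male library (0.872% of 8488 genes), namely *Nxnl2*, *Nqo2* and *Tspan2*, and 2 in the female library (2.71%), namely *Syn2* and *Nxnl2*. The female *Syn2* call was lost under 2 of 10 alternatives (1.92 and 1.93). Of these only *Nxnl2* was called in both (0.566%), and *Cartpt* was called lower in both (0.459%). Female *Nqo2*, at 1.96-fold, lay just under the rule and passed it under 6 of 10 alternatives (2.14 to 2.90), where it would be called in both as well. These contrasts are those by which the genes were chosen, so that nothing follows from the counts beyond the description.

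**Figure D2:**
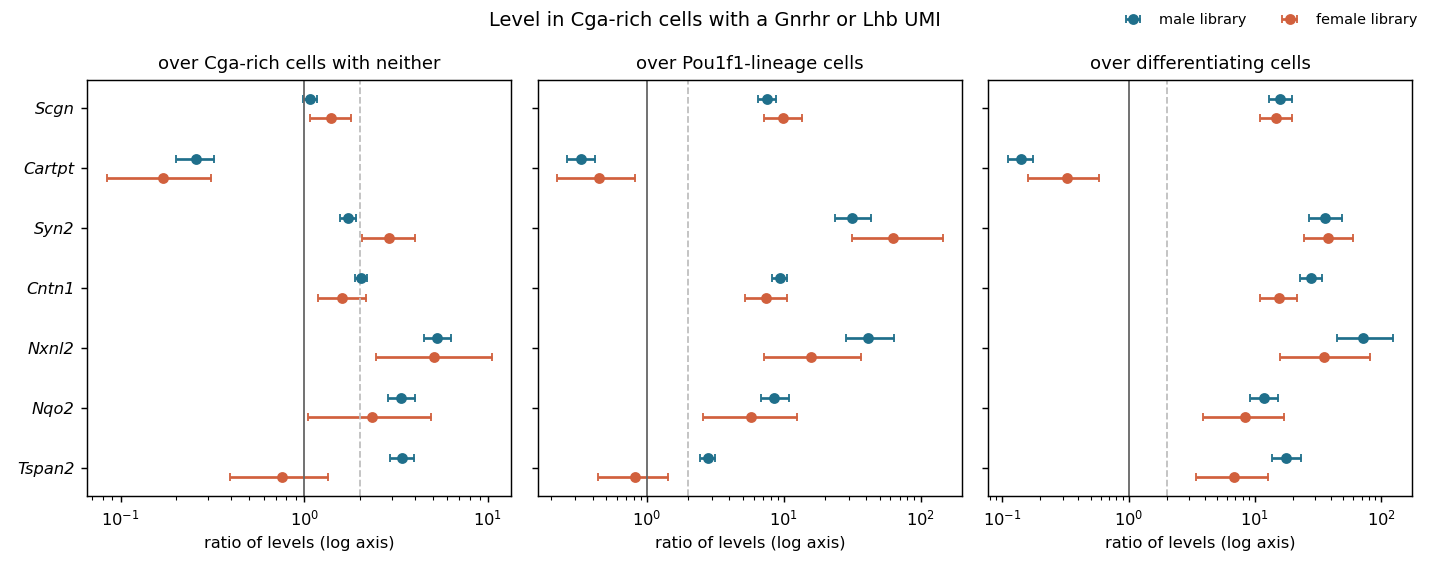
Ratio of the level of each gene in *Gnrhr*- or *Lhb*-positive *Cga*-rich cells to its level in negative *Cga*-rich, *Pou1f1*-lineage and differentiating cells (log axes; solid line 1, dashed line 2), with exact 95% counting intervals, for the male (blue) and female (orange) library. *Cartpt* lay below 1 in all 6 ratios and *Tspan2* on both sides of 1 in the first 2 panels.

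*Scgn* encodes secretagogin, an EF-hand calcium sensor of neuroendocrine cells that takes part in vesicle release. It was present in *Cga*-rich cells whatever their *Gnrhr* status. In the male library it stood at 131.5 CPM (interval 124 to 139) in negative cells, 163.8 CPM in cells with *Gnrhr* only and 78.1 CPM (64.3 to 93.8) in cells with both *Gnrhr* and *Lhb*. In the female library it stood at 149.9 CPM (132 to 170) in negative cells and 260.5 CPM (206 to 325) in cells with *Gnrhr* only. The ratio of positive to negative cells was 1.07 (0.985 to 1.17) in males and 1.40 (1.08 to 1.79) in females, where it turned to 0.736 (with 5 CPM added) once cells were thinned to 5000 UMIs and placed anew, while the ratio to *Pou1f1*-lineage cells was 7.50 (6.44 to 8.77) and 9.88 (7.16 to 13.7), the latter falling with the same thinning from 8.19 to 4.23 (with 5 CPM added). Male cells with both markers held less *Scgn* than those with *Gnrhr* only (0.477 times, 0.388 to 0.581). *Scgn* was 1.85 CPM (1.48 to 2.27) in male and 1.18 CPM (0.871 to 1.57) in female SCs, which overlaps the 0.973 CPM (0.357 to 2.12) and 0 CPM (0 to 1.25) of the *Dcn*-rich mesenchymal cells used below as a measure of free RNA, so that no expression in SCs is read from it.

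*Scgn* also differed with *Neurod1*, which encodes a bHLH factor of neuroendocrine differentiation. *Cga*-rich cells with a *Neurod1* UMI held 149.3 CPM of *Scgn* and those without held 33.2 CPM in the male library, and 196.4 against 40.3 CPM in the female library. The male cells without it were shallower (median of 3879 UMIs against 14061) and held more *Tshb* (428.2 against 62.9 CPM), *Pou1f1* (207.1 against 98.2 CPM), *Pomc* (6632 against 2712 CPM) and *Sox2* (271.9 against 86.0 CPM). The female ones were as deep (14185.5 against 14338 UMIs) and held more *Tshb* (7986 against 65.5 CPM), *Pou1f1* (139.9 against 77.2 CPM) and *Sox2* (284.1 against 107.5 CPM) but less *Pomc* (70.0 against 990.6 CPM). The part of depth and of these RNAs in the difference was not tested. Within differentiating cells, *Scgn* was at 2.07 CPM in the early cells, which hold few UMIs of *Smoc2*, *Pou3f4* and *Shh*, and at 10.6 CPM in the late ones in males (ratio 5.10, 2.12 to 16.0), and at 1.02 and 18.5 CPM in females (ratio 18.1, 4.90 to 151). Late differentiating cells that also had a *Cga* UMI held 14.2 CPM in males and 30.9 CPM in females, against 5.94 and 8.55 CPM in those without. *Scgn* was thus measurable in cells below the *Cga* threshold.

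*Syn2* encodes synapsin II, a phosphoprotein that tethers vesicles to the cytoskeleton. Its level was 83.6 CPM (77.9 to 89.7) in negative, 153.5 CPM in *Gnrhr*-only and 126.4 CPM in *Gnrhr*- and *Lhb*-positive male cells, and 54.3 CPM (43.8 to 66.6) in negative and 183.7 CPM (138 to 239) in *Gnrhr*-only female cells. Positive exceeded negative cells 1.73-fold (1.57 to 1.91) in males and 2.88-fold (2.05 to 4.01) in females. *Pou1f1*-lineage cells held 4.58 CPM in males and 2.47 CPM in females, which gives ratios of 31.7 (23.8 to 43.0) and 63.2 (31.2 to 145). The *Pou1f1* lineage thus held little *Syn2*. Its median depth was 13867 UMIs in males and 12407 in females, against 13333 and 14338 in *Cga*-rich cells. The part of depth in the difference was not tested. Outside *Cga*-rich cells *Syn2* was highest in *Pomc*-rich cells, at 29.5 CPM (25.1 to 34.3) in males and 31.7 CPM (24.83 to 39.97) in females. *Cga*-rich cells without a *Neurod1* UMI held 20.3 CPM in males and 4.24 CPM in females, against 120 and 93.9 CPM in those with one.

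*Cntn1* encodes contactin 1, a GPI-anchored adhesion protein of the immunoglobulin superfamily. It was measured at 123.7 CPM (117 to 131) in negative, 266.4 CPM (252 to 282) in *Gnrhr*-only and 217.6 CPM (194 to 243) in doubly positive male cells, and at 98.6 CPM and 193.7 CPM in negative and *Gnrhr*-only female cells. Positive cells held 2.04 times (1.89 to 2.20) the level of negative ones in males and 1.61 times (1.19 to 2.16) in females. With 5 CPM added, the male ratio is 1.997, just under the 2-fold rule, and 5 of 10 alternatives moved it over, to at most 2.30. Among *Pou1f1*-lineage cells *Cntn1* was about 2-fold higher in hormone-rich cells (at least 2000 CPM of *Gh*, *Prl* and *Tshb* together) than in those with little hormone, at 45.9 and 22.4 CPM in males (ratio 2.05, 1.59 to 2.62) and 36.6 and 18.6 CPM in females (1.97, 1.13 to 3.29). In males the *Gh*-rich cells held 57.4 CPM (46.0 to 70.8), and the 39 cells with *Prl* but little *Gh* 19.0 CPM (9.79 to 33.1). SCs held about 10 CPM in both libraries (10.0 and 10.2), and 45.2% of all female *Cntn1* UMIs came from the numerous SCs.

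*Nxnl2* encodes nucleoredoxin-like 2, a thioredoxin-fold protein known from photoreceptors as a cone survival factor. Of the members higher in positive cells, it had the largest ratio of positive to negative cells in both libraries. Male levels were 19.4 CPM (16.7 to 22.4) in negative, 94.1 CPM (85.5 to 103) in *Gnrhr*-only and 137.5 CPM (119 to 158) in doubly positive cells. The 17 male cells with *Lhb* only, with a median of 4014 UMIs, held 14.7 CPM (1.78 to 53.1) of *Nxnl2*. Their other levels were 44.1 CPM for *Scgn* and *Syn2*, 124.9 CPM for *Cntn1*, 14.7 CPM for *Nqo2*, 66.1 CPM for *Tspan2* and 29.4 CPM for *Cartpt*. Female levels were 9.44 CPM (5.40 to 15.3) in negative and 53.4 CPM (30.5 to 86.8) in *Gnrhr*-only cells, the latter from 16 UMIs. Positive exceeded negative cells 5.28-fold (4.47 to 6.26) and 5.07-fold (2.47 to 10.5). With 5 CPM added the ratios were 4.402 and 3.66, which rank *Nxnl2* 8 of 8488 genes in males and 22 in females. *Pou1f1*-lineage cells stood at 2.47 and 3.02 CPM (ratios 41.4 and 15.8), and SCs at 0.748 and 1.03 CPM. In the male library 85.7% of all *Nxnl2* UMIs lay in *Cga*-rich cells, the highest share of the 7 genes, against 31.3% in the female library, where *Cga*-rich cells are fewer.

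*Nqo2* encodes a quinone reductase that uses dihydronicotinamide riboside in place of NADH. In males *Nqo2* was at 21.1 CPM (18.3 to 24.2) in negative, 68.8 CPM (61.5 to 76.8) in *Gnrhr*-only and 83.6 CPM (69.4 to 99.9) in doubly positive cells, the last pair with overlapping intervals, and the ratio of positive to negative cells was 3.369 (2.843 to 4.003). In females it was at 12.99 CPM (8.14 to 19.7) in negative and, over 11 UMIs, 36.7 CPM (18.3 to 65.7) in *Gnrhr*-only cells, with a ratio of positive to negative cells of 2.33 (1.05 to 4.92). *Pou1f1*-lineage, *Pomc*-rich, *Dcn*-rich, differentiating cells and SCs held low levels, from 4.67 to 8.33 CPM in males and from 1.32 to 7.79 CPM in females, with the non-endocrine *Dcn*-rich cells at 7.79 CPM in both libraries. *Nqo2* overlaps *Serpinb6a* (chr13:33917918-34002794) on the opposite strand.

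*Tspan2* encodes a tetraspanin, a family of proteins that organise membrane microdomains. It differed between *Gnrhr*-only and doubly positive male cells, at 67.6 CPM (60.3 to 75.4) and 179.6 CPM (158 to 203), a ratio of 2.66 (2.25 to 3.14). Negative male cells held 27.5 CPM, and positive cells exceeded them 3.40-fold (2.93 to 3.95). In the female library the levels were 46.6 CPM (36.9 to 58.1) in negative and 40.1 CPM (20.7 to 70.0) in *Gnrhr*-only cells, and the ratio of positive to negative cells was 0.757 (0.396 to 1.35). The female interval includes 1, and the ratio (with 5 CPM added) turned from 0.780 to 1.84 without *Cga*-rich cells that had a *Pou1f1* UMI and to 1.62 without cells that had a *Tshb* UMI, so that no female direction is read from its 14 UMIs.

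*Tspan2* was not confined to *Cga*-rich cells. *Pou1f1*-lineage cells held 33.8 CPM in males and 43.2 CPM in females, so that the ratio of positive cells to them was 2.77 (2.42 to 3.16) in males and 0.818 (0.437 to 1.41) in females. *Tspan2* was also high in cells with much *Tshb*: negative *Cga*-rich cells with at least 2 *Pou1f1* UMIs and at least 2000 CPM of *Tshb*, 5 male and 6 female cells, held 153.1 CPM (102 to 221) and 293.8 CPM (219 to 386) of *Tspan2*. Negative cells with a *Tshb* UMI held 111.3 CPM in males and 166.5 CPM in females, and those without one 20.8 and 18.3 CPM. *Pou1f1*-lineage cells with a *Tshb* UMI held 64.0 and 91.7 CPM against 28.3 and 31.6 CPM. Because *Tshb* lies within *Tspan2*, reads of one gene counted for the other and higher *Tspan2* expression in thyrotroph-lineage cells cannot be told apart in these counts. Among male *Cga*-rich cells with no *Tshb* UMI, positive cells held 83.2 CPM (75.5 to 91.4) and negative cells 20.8 CPM (17.9 to 24.1). In the female library the same cells stood at 32.8 CPM (16.9 to 57.2) and 18.3 CPM (11.8 to 26.9), so that positive cells were then higher there too, within overlapping intervals.

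*Cartpt* encodes the precursor of the cocaine- and amphetamine-regulated transcript peptide, a neuropeptide also made in endocrine cells. In males it stood at 52.2 CPM (47.7 to 57.0) in negative, 9.41 CPM (6.84 to 12.6) in *Gnrhr*-only and 24.9 CPM (17.4 to 34.4) in doubly positive cells. In females it stood at 162.9 CPM (144 to 183) in negative and 10.0 CPM (2.07 to 29.3) in *Gnrhr*-only cells, the latter from 3 UMIs. *Gnrhr*-only cells thus held 0.180 times (0.129 to 0.246) the level of negative cells in males and 0.0615 times (0.0126 to 0.182) in females. No other member was lower in *Gnrhr*-only than in negative cells in the male library. *Cga*-rich cells without *Neurod1* had more *Cartpt* than those with it, at 94.2 against 28.9 CPM in males and 209.9 against 116.1 CPM in females, the reverse of *Scgn* and *Syn2*.

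Most *Cartpt* UMIs lay outside *Cga*-rich cells. By level, all *Cga*-rich cells together stood at 36.7 CPM (33.7 to 39.8) in males and 137.3 CPM (122 to 154) in females. That was 0.382 times (0.345 to 0.422) the level of differentiating cells in males and 1.60 times (1.39 to 1.84) in females. Differentiating cells stood at 96.1 CPM (90.6 to 102) in males and 85.9 CPM (79.6 to 92.5) in females and held 32.5% and 34.2% of all *Cartpt* UMIs, against 16.2% and 14.2% for *Cga*-rich cells. Early differentiating cells already held 90.9 CPM in males and 46.5 CPM in females. Among the late ones, cells without a *Cga* UMI held more (126.7 and 112.6 CPM) than cells with one (74.4 and 80.8 CPM). SCs, at 19.5 and 15.0 CPM, held 26.5% and 30.0% of the UMIs through their number. Hormone-rich *Pou1f1*-lineage cells stood at 117 CPM (103 to 132) and 252.6 CPM (213 to 297), and exceeded those with little hormone 5.41-fold (4.47 to 6.57) and 9.67-fold (7.31 to 12.9). The latter stood at 21.6 CPM (18.6 to 24.9) in males and 26.1 CPM (20.7 to 32.5) in females. *Gnrhr*- or *Lhb*-positive *Cga*-rich cells stood at 13.4 CPM (10.7 to 16.6) and 27.7 CPM (13.8 to 49.6), the female intervals overlapping. *Pou1f1*-lineage cells with at least 2000 CPM of *Gh*, the growth hormone gene, held 154.4 CPM (62 cells) in males and 279.2 CPM (30 cells) in females, and the 39 male cells with *Prl* but little *Gh* held 33.2 CPM. Single cells held up to 56 male and 52 female *Cartpt* UMIs, the highest counts per cell of the 7 genes.

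Within male *Cga*-rich cells 5 members were higher the higher the level of *Cga* itself. In the male library, from cells with 2000 to 5000 CPM of *Cga* to cells with at least 20000 CPM, *Nxnl2* went from 10.1 to 119.3 CPM, *Nqo2* from 15.5 to 88.0 CPM, *Tspan2* from 22.7 to 142.2 CPM, *Cntn1* from 69.6 to 273.2 CPM and *Syn2* from 44.6 to 169.6 CPM, each higher in every bin than in the one before. Intervals overlapped in the upper 2 bins for *Cntn1* (239 to 267 and 252 to 295) and *Syn2* (141 to 162 and 153 to 187). For *Tspan2* they overlapped in the lower 2 bins (18.5 to 27.6 and 26.3 to 37.9). *Scgn* was highest in the third bin, at 185.3 CPM (173.7 to 197.6), and lower in the top bin, at 157.9 CPM (142.1 to 174.9), with overlapping intervals. *Cartpt* stood at 45.9, 57.7, 21.8 and 16.9 CPM from the lowest to the top bin in males, and at 175.7, 94.7, 174.3 and 105.0 CPM in females, with no steady order there. RNA of other lineages moved across the same male bins, *Pomc* from 6241 to 538.2 CPM, *Pou1f1* from 224.3 to 35.6 CPM, *Sox2* from 191.8 to 25.2 CPM and *Tshb* from 4.95 to 473.6 CPM, and its part in these levels was not tested. In the female library *Cntn1* went from 57.7 CPM (42.1 to 77.2) in the lowest to 167.2 CPM (132 to 209) in the top bin and *Nqo2*, over 7 and 14 UMIs, from 8.98 CPM (3.61 to 18.5) to 30.0 CPM (16.4 to 50.3), the latter with overlapping intervals, while *Syn2* and *Nxnl2* were level over the upper 2 bins, at 113.7 and 111.5 CPM and at 30.3 and 30.0 CPM. There *Tspan2* stayed between 15.5 and 22.7 CPM in the lower 3 bins and stood at 135.0 CPM in the top bin, where *Tshb* reached 8196 CPM. *Gnrhr* went from 9.91 to 461.9 CPM and *Lhb* from 8.56 to 328.3 CPM between the lowest and top male bins. The bins are therefore not separate from the split by *Gnrhr* and *Lhb* status. *Cga* itself helped to choose the cells, and the bins share that choice.

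**Figure D3:**
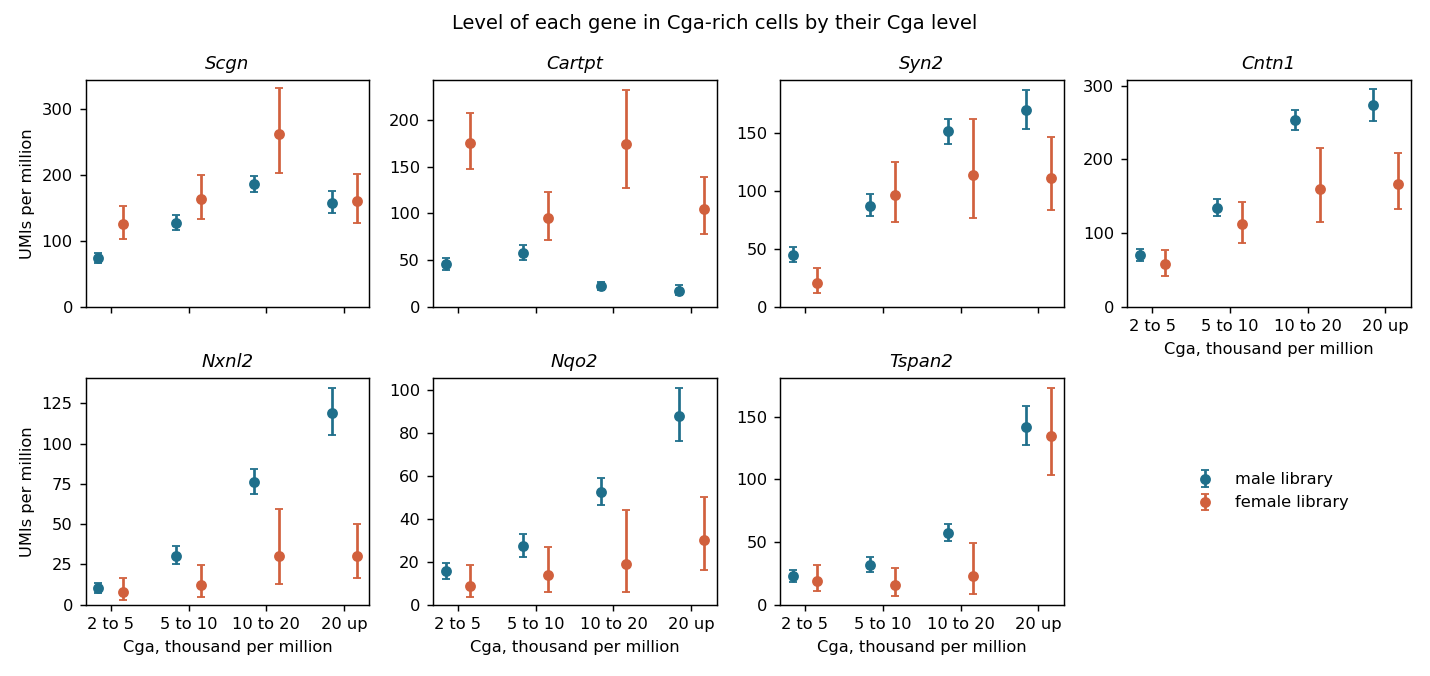
Level of each gene (CPM, linear axis from 0) in *Cga*-rich cells in 4 bins of their own *Cga* level (x axis, from 2000 to over 20000 CPM) in the male (blue) and female (orange) library, with exact Poisson 95% intervals. In males 5 genes are higher in each bin than in the one before, some with overlapping intervals. *Scgn* is highest in the third bin at 185.3 CPM, with an interval that overlaps the top bin, and *Cartpt* is lower in the upper 2 bins.

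Just outside the *Cga* threshold, cells of any class with 1000 to 2000 CPM of *Cga* (289 male and 55 female) held *Scgn* at 37.3 and 79.2 CPM, *Syn2* at 15.0 and 13.8 CPM, *Cntn1* at 41.7 and 39.0 CPM, *Nxnl2* at 2.56 and 5.03 CPM, *Nqo2* at 9.50 and 10.1 CPM and *Tspan2* at 23.7 and 13.8 CPM. Just inside it, cells with 2000 to 5000 CPM held 73.6 and 125.7, 44.6 and 20.5, 69.6 and 57.7, 10.1 and 7.69, 15.5 and 8.98, and 22.7 and 19.2 CPM of the same genes. *Cartpt* was 69.4 and 135.8 CPM just outside and 45.9 and 175.7 CPM just inside. The cells outside the threshold are of several classes.

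The negative *Cga*-rich cells were not uniform. Those with at least 2 *Pou1f1* UMIs, 100 male and 17 female cells, held *Scgn* at 42.0 and 49.8 CPM and *Syn2* at 23.7 and 14.6 CPM. Those with fewer, 669 male and 98 female cells, held *Scgn* at 150.5 and 175.2 CPM and *Syn2* at 96.4 and 64.3 CPM. *Tspan2* went the other way, at 68.1 and 169.8 CPM in the cells with at least 2 *Pou1f1* UMIs and 18.9 and 15.5 CPM in those with fewer. *Cartpt* was similar in both groups of female cells, at 175.6 and 159.7 CPM, and stood at 77.9 and 46.8 CPM in the male ones. This split was chosen after the levels of *Cartpt* and *Tshb* had been seen.

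Counted per cell, many *Gnrhr*- or *Lhb*-positive cells held several of the genes at once. Each cell was thinned to 5000 UMIs so that depth was equal for the 7 genes, which left 339 male and 24 female positive cells. Classes were kept from the full counts, so that *Gnrhr* and *Lhb* status still depended on full depth. In males 195 of 769 negative and 29 of 368 positive cells had too few UMIs and were left out. *Cntn1* was found in 64.6% of them in males and 50% in females, *Syn2* in 54.6% and 54.2%, *Scgn* in 45.1% and 54.2%, and *Nxnl2* in 35.4% (30.3 to 40.7, Clopper-Pearson) and 20.8% (7.13 to 42.2). Thinned negative cells held *Nxnl2* in 9.23% (6.99 to 11.9) of cells in males and 3.51% (0.964 to 8.74) in females. Before thinning, *Nxnl2* was found in 64.7% of the positive and 16.0% of the negative male cells. As a measure of free RNA, the *Dcn*-rich mesenchymal cells, with lower median depth (8150 UMIs in males and 7930 in females, before thinning), held a UMI of *Scgn*, *Cartpt*, *Syn2*, *Cntn1* or *Nxnl2* in at most 0.931% of cells. For *Nqo2* the share in *Dcn*-rich cells was 3.72% and 3.70%, against 3.37% and 1.74% in differentiating and 2.24% and 0.741% in *Pomc*-rich cells, so that no expression is read from the latter classes, and whether *Dcn*-rich cells express *Nqo2* was not tested. For *Tspan2* it was 2.05% (1.03 to 3.64) and 1.01% (0.209 to 2.92), against 2.85% (1.79 to 4.28) and 2.95% (1.73 to 4.68) in differentiating cells, with overlapping intervals. Positive male cells held a mean of 2.72 of the 7 genes, negative ones 1.59, *Pou1f1*-lineage cells 0.541, differentiating cells 0.421 and SCs 0.165. The female means were 2.08, 1.62, 0.467, 0.387 and 0.149. Of the positive cells, 55.5% in males and 41.7% in females held at least 3 of the genes, against 23.3% and 21.1% of negative cells, 0.0301% of male SCs and none of 3689 female SCs.

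**Figure D4:**
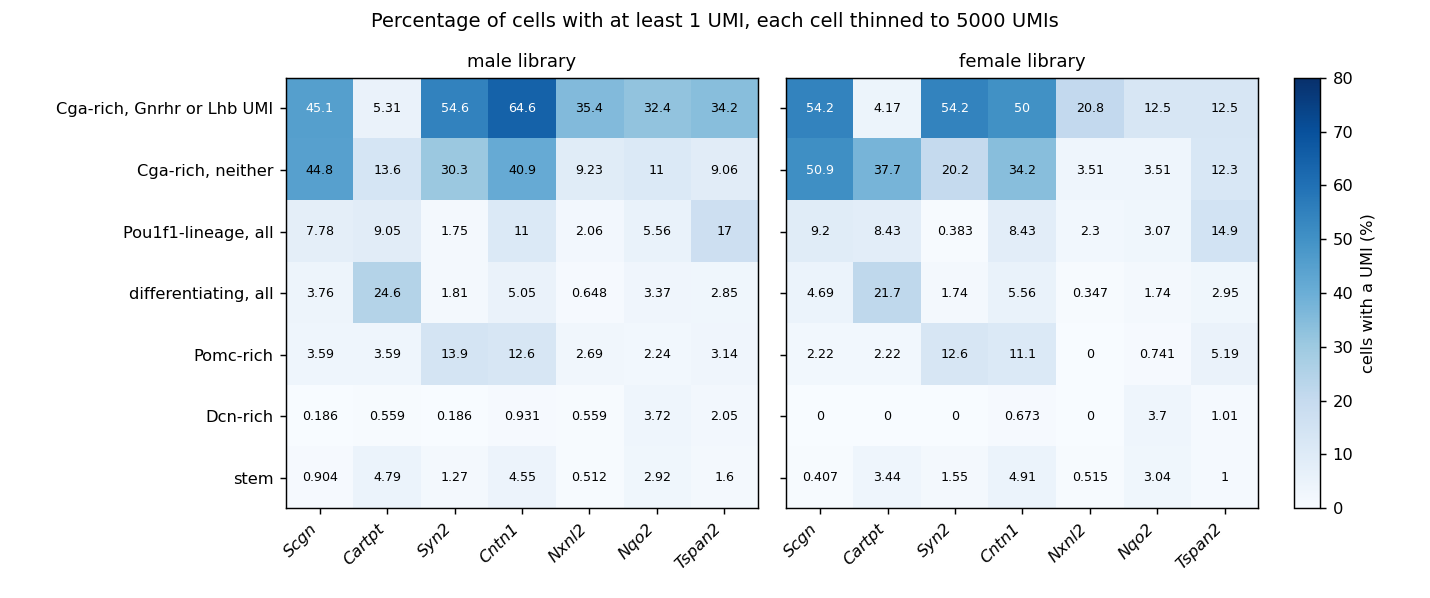
Percentage of cells with at least 1 UMI of each gene after each cell was thinned to 5000 UMIs, by class (rows) and gene (columns), in the male (left) and female (right) library; darker blue is a higher percentage. With *Pou1f1*-lineage and differentiating cells each taken whole, *Cartpt* is the only gene whose highest class lies outside the *Gnrhr*- or *Lhb*-positive cells in both libraries (24.6% of differentiating cells in males, 37.7% of negative *Cga*-rich cells in females). Taken apart, male hormone-rich *Pou1f1*-lineage cells stood at 27.7%. *Dcn*-rich cells serve as a measure of free RNA.

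Pairs of genes met in the same thinned *Cga*-rich cell to different degrees. In the 913 male cells *Nxnl2* and *Tspan2* were found together in 69 cells, 2.17 times the number that 2 unrelated genes of their frequencies would give, and *Nqo2* and *Tspan2* in 53 (1.66 times). *Cartpt* and *Nxnl2* met in 7 cells, 0.385 times that number. In the 138 female cells the corresponding counts were 0, 1 and 1, too few to compare. Positive and negative cells were pooled in these counts, and *Nxnl2*, *Nqo2* and *Tspan2* were each higher in positive male cells. The part of that status, and of other shared composition, in the ratios was not tested, and these ratios are a description.

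Across 22 points, 11 classes in each library, 6 of the members resembled each other and *Cartpt* did not. Pearson's r of log2(CPM + 5) lay between 0.490 (*Syn2* and *Tspan2*) and 0.911 (*Nxnl2* and *Nqo2*) for pairs without *Cartpt*, and between -0.282 (with *Nqo2*) and 0.151 (with *Tspan2*) for pairs with it. The points share 2 libraries and the *Cga* threshold, and 2 of them are female classes of 2 and 3 cells. Over the 20 points with at least 10 cells the lowest pair without *Cartpt* was *Nqo2* and *Tspan2* (0.609). Among 4673 genes of sufficient level, those most like *Scgn* were *Mrps6* (r = 0.941), *Neurod1* (0.939) and *Tuba4a* (0.934), whose order turned over the 20 points (0.939, 0.971 and 0.959). Those most like *Syn2* were *Gap43* (0.959), *Rnf11* (0.906) and *Hmgn3* (0.902). *Gap43*, a growth cone gene, stood at 127.5 CPM in negative and 277.1 CPM in *Gnrhr*-only male cells, and at 93.9 and 390.7 CPM in female ones. Closest to *Cntn1* were *Pmvk* (0.925), *Cib2* (0.908) and *Gnb3* (0.907). Apart from the member *Nqo2* (0.911), those closest to *Nxnl2* were *Ndufb4* (0.942), *Alkbh7* (0.882) and *Plekha3* (0.8798). Closest to *Nqo2* were *Nxnl2* (0.911), *Prkra* (0.896) and *Ndufa8* (0.889), and to *Tspan2* *Rbp4* (0.928), *Stxbp5l* (0.888) and *Auh* (0.873). *Rbp4*, the plasma retinol carrier gene, was at 230.4, 470.6 and 928.3 CPM in negative, *Gnrhr*-only and doubly positive male cells. For *Cartpt* the nearest genes were *Yeats4* (0.705), *Celf4* (0.691) and *Bag2* (0.687). The mean profile of the 7, of which *Cntn1*, *Scgn* and *Nxnl2* are themselves part, was most like *Cntn1* (0.973), *Scgn* (0.939), *Tuba4a* (0.919), *Ube2q1* (0.912), *Pmvk* (0.910), *Gnb3* (0.903), *Nxnl2* (0.902), *Cga* (0.900), *Fam171b* (0.899) and *St18* (0.896).

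The members were set beside lists of their relatives, where a gene counts as called when it was called in both libraries. Each list includes its member, which was chosen from these data as enriched in gonadotrophs. A higher call of the member itself is therefore no result of the list. Of all genes tested, 2.05% were called higher and 1.84% lower against *Pou1f1*-lineage cells, 4.31% and 1.88% against differentiating cells, and 0.566% and 0.459% against negative *Cga*-rich cells. Of 23 synaptic vesicle genes tested against *Pou1f1*-lineage cells, 5 were called higher in positive cells in both libraries, namely *Syn2*, *Syp*, *Syt1*, *Syt4* and *Rab3b*, and none lower (list median 1.63-fold in males and 1.66-fold in females, against 0.994 and 0.976 over all genes tested). *Syp*, the gene of the vesicle protein synaptophysin, was also the one called higher against negative cells, at 108.9 against 48.5 CPM in males and 116.0 against 41.3 CPM in females. Against differentiating cells 13 of 22 were called higher and none lower (medians 2.78 and 2.95, against 1.05 and 0.982). *Syn1*, the nearest relative of *Syn2*, stood at 12.9 CPM in positive and 6.04 CPM in *Pou1f1*-lineage male cells. Of 12 EF-hand calcium sensor genes tested against the *Pou1f1* lineage, *Scgn* was called higher and *S100a10* lower, and of 11 tested against differentiating cells *Scgn* and *Necab2* were called higher.

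Among 5 neuropeptide precursor genes tested against *Pou1f1*-lineage cells, *Nmu* was called higher and *Cartpt* and *Pdyn* lower. *Nmu*, which encodes neuromedin U, had the opposite calls to *Cartpt* in all 3 comparisons, at 56.9 CPM in positive and 8.74 CPM in negative male cells, 55.5 and 3.54 CPM in female cells, and under 1 CPM in *Pou1f1*-lineage and differentiating cells. *Grp*, the gastrin-releasing peptide gene, shared the lower calls of *Cartpt* against negative and differentiating cells, at 8.46, 34.9 and 65.9 CPM in positive, negative and differentiating male cells and 5.04, 56.7 and 67.9 CPM in female ones. Of 5 contactin and partner genes *Cntn1* was called higher and *Ptprz1* lower against the *Pou1f1* lineage. Of 6 nucleoredoxin and thioredoxin genes *Nxnl2* alone was called higher, in each of the 3 comparisons, and *Nxn* was called lower against differentiating cells. Of 7 quinone reductase and NRF2 target genes *Nqo2* was called higher and *Nqo1* lower against the *Pou1f1* lineage, *Nqo1* being at 1.44 CPM in positive and 36.9 CPM in *Pou1f1*-lineage male cells and at 0 and 40.7 CPM in female ones. Of 19 tetraspanin genes *Tspan1* was called higher against the *Pou1f1* lineage, and *Tspan2*, *Tspan13* and *Rom1* higher and *Cd9* lower against differentiating cells.

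Many *Cga*-rich male barcodes fell below 2000 UMIs and were left out of these classes. There were 806 such barcodes in the male library, with a median of 1121.5 UMIs and 5 *Cga* UMIs, against 1 in the female library. Together they held *Cntn1* at 105.0 CPM, *Scgn* at 62.8 CPM and *Nxnl2* at 24.9 CPM. *Syn2* stood at 35.7 CPM and *Cartpt* at 32.5 CPM. For *Cntn1* and *Nxnl2* these values lie near the levels of the negative *Cga*-rich cells, and for *Scgn*, *Syn2* and *Cartpt* below them.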

How the data were processed

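Single-cell libraries of the SOX9iresGFP+ fraction were prepared with the Chromium 3′ kit (the labels and the methods give different chemistry versions). The authors ran Cell Ranger 3.0.2 against mm10 with eGFP added and deposited UMI counts per gene and barcode, whole numbers without normalization. Per the labels, Seurat was used downstream, and those results were not used here.

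As in the methods, cells in which under 50 genes were detected or whose mitochondrial share exceeded the library mean by over 3 SD were removed (159 male and 85 female). Doublets were kept in the main analysis, and Scrublet (scanpy 1.11.5) marked the top 0.8% per 1000 cells. Cells with fewer than 2000 UMIs (2641 male and 96 female) were left out of the classes. Cells were assigned in the order given, with *Pomc*-rich at 5000 CPM, *Dcn*-rich at 500 CPM and late differentiating cells at 2 UMIs of *Smoc2*, *Pou3f4* and *Shh* together. CPM have exact Poisson intervals, ratios exact intervals conditional on the summed UMIs, and shares Clopper-Pearson intervals. A gene was tested for a 2-fold call where the 2 classes held at least 20 UMIs in each library. The calculations were tested on simulated data.

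Named genes were the 7 members, the marker and family lists, the 3 genes most like each member and the 10 most like their mean (at least 50 CPM in 1 class and 100 UMIs in each library). For *Nxnl2* the 3 genes are given apart from the member *Nqo2*. The members and lists were chosen with earlier results of these data known. Alternatives were the UMI minimum, doublets, the *Cga* and status thresholds, *Pou1f1*- and *Tshb*-positive cells left out, the mean over cells, and thinning to 5000 UMIs. Python 3.11.15, numpy 2.4.6, scipy 1.17.1 and pandas 2.3.3 were used.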

Additional observations from a re-analysis of the deposited data

Results flagged for a closer look

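The *Tspan2* ratios fell on opposite sides of 1 in the 2 libraries, although the female ones did not differ from 1 beyond counting error. With 5 CPM added, its level in *Gnrhr*- or *Lhb*-positive *Cga*-rich cells was 3.03 times that of negative cells in the male library and 0.780 times in the female library, and 2.54 and 0.836 times that of *Pou1f1*-lineage cells. Without the added CPM the female ratios were 0.757 (0.396 to 1.35) and 0.818 (0.437 to 1.41), and the female fold over negative cells turned to 1.84 without *Cga*-rich cells that had a *Pou1f1* UMI and to 1.62 without cells that had a *Tshb* UMI. The difference between the libraries was not tested, since there is 1 library per sex. The female positive cells held 14 *Tspan2* UMIs, and the female negative cells held *Tshb*, which lies within *Tspan2*, at 2283 CPM.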

How the results depend on the processing

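No paired analysis was possible because each sex has 1 library and the results come from no test. The 6 members called higher than in differentiating cells in both libraries, and the 6 male and 5 female members called higher than in *Pou1f1*-lineage cells, were as many under all 10 alternatives. Against negative *Cga*-rich cells, the male count of 3 was 5 with a *Cga* threshold of 1000 CPM, where *Syn2* and *Cntn1* joined, and 4, with *Cntn1*, under 4 other alternatives (2.002 to 2.09), and the female count of 2 was 1 with a threshold of 5000 CPM, where *Syn2* stood at 1.92-fold. Female *Nqo2*, at 1.96, passed 2-fold under 6 alternatives (2.22 without Scrublet-marked barcodes, 2.14 with status set at 2 UMIs, 2.90 without *Cga*-rich cells that had a *Pou1f1* UMI, 2.44 as a mean over cells, 2.40 after thinning and 2.48 without cells that had a *Tshb* UMI), which makes the female count 3 except after thinning, where it stayed 2. *Cartpt* lost its lower call against *Pou1f1*-lineage cells in females without *Cga*-rich cells that had a *Pou1f1* UMI (0.542), as a mean over cells (0.526) and without cells that had a *Tshb* UMI (0.693). Of 420 single-gene folds under alternatives, 308 stayed within the counting interval of the main value, 112 moved beyond it and none of the called folds reversed. Uncalled, the female *Tspan2* fold over negative cells of 0.780 became 1.84 without *Cga*-rich cells that had a *Pou1f1* UMI and 1.62 without cells that had a *Tshb* UMI, and the cause was not tested. The thinned alternative changed depth and, since cells were placed anew on the thinned counts, class membership at once (236 male and 17 female positive cells). There *Cartpt* over *Pou1f1*-lineage cells in males went from 0.404 to 0.624, which ended its call, and female *Scgn* over negative cells, 1.38, turned to 0.736. Female *Cartpt* over negative cells went from 0.195 to 0.119 and over differentiating cells from 0.360 to 0.186 (and to 0.237 without Scrublet-marked barcodes). Female *Scgn* over *Pou1f1*-lineage cells went from 8.19 to 4.23 and *Syn2* over negative cells below the 2-fold rule, to 1.93. The female positive class has 24 cells, so that levels of *Nxnl2*, *Nqo2*, *Tspan2* and *Cartpt* there rest on at most 19 UMIs each.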
